A study of Mus musculus with 6 samples.

Results

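The Arp2/3 complex was examined through the transcripts of its 9 subunit genes, *Actr2*, *Actr3*, *Arpc1a*, *Arpc1b*, *Arpc2*, *Arpc3*, *Arpc4*, *Arpc5* and *Arpc5l*, in osteoblasts (OBs) of BMP-2-induced ectopic bone. The genes were chosen by symbol, and all 9 were found among the 23284 genes listed for each sample. Fluorescent OBs (ECFP+) of male *Col2.3*-ECFP mice were sorted from collagen sponge implants removed on day 10 (n = 3) or day 14 (n = 3). No untreated sample was included, so every sample shares the transgene and the 2.5 μg of BMP-2, and the mice were 12 to 16 weeks old. A type I collagen promoter drives ECFP in these mice, so the gate selects cells by collagen promoter activity and excludes CD45+ and dead cells. The bone was digested with collagenase 1 time on day 10 and 2 times on day 14, and this step cannot be told apart from the day. The titles place all later samples on day 14, while the free-text descriptions give day 14, 15 and 16 for replicates 1, 2 and 3.

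The Arp2/3 complex starts a new actin filament on the side of an existing one, which gives the branched networks of lamellipodia and endocytic sites. Arp2 and Arp3 resemble actin and form the base of the new branch, while ArpC1 to ArpC5 hold them on the mother filament. The complex is inactive alone and is switched on by WASP, WAVE and WASH family proteins. In mammals ArpC1, ArpC5 and Arp3 each exist in alternative forms encoded by separate genes, and complexes with different forms differ in activity.

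All values are FPKM, read counts divided by transcript length and by the size of the library, so that levels of different genes can be compared. The depth, estimated from the steps between low FPKM values, was 4528047 to 7754635 reads per sample, so that 3 reads on 1000 usable bases correspond to 0.387 to 0.663 FPKM. All 7 OB markers were above 0 in every sample and summed to 28368 to 54192 FPKM on day 10. On day 14 they summed to 19619, 38269 and 15669 FPKM in replicates 1, 2 and 3. Each of the 7 had its highest day 14 value in replicate 2. *Dlx5* was at 7.56 to 9.88 FPKM on day 10 and at 0.979, 9.84 and 1.01 FPKM on day 14. *Alpl* was at 809 to 1129 FPKM and at 273, 1300 and 186 FPKM in the same order. Only *Sp7* had every day 14 sample below every day 10 sample (40.1 to 73.7 and 4.09 to 27.9 FPKM). The 6 osteoclast markers summed to 446 to 487 FPKM on day 10 and 627 to 675 FPKM on day 14, without overlap, and most of this was *Ctsk* (403 to 425 and 574 to 614 FPKM). Among them only *Ctsk* had every day 14 sample above every day 10 sample. The days overlapped in *Acp5*, *Mmp9*, *Calcr* and *Dcstamp*, and *Ocstamp* (0.162 to 0.727 FPKM) was lower in every day 14 sample. The 6 endothelial markers summed to 1.80 to 3.69 FPKM on day 10 and 3.52 to 7.20 FPKM on day 14, and the 4 muscle markers to 1.93 to 9.13 and 0.275 to 2.57 FPKM. Cartilage and myeloid markers also varied between samples. The 11 chondrocyte markers summed to 429 to 859 FPKM on day 10, and to 117, 1105 and 74.0 FPKM in replicates 1, 2 and 3 of day 14. The 10 myeloid markers summed to 36.9 to 165 FPKM on day 10, and to 267, 20.5 and 627 FPKM in the same order on day 14. The pan-leukocyte marker *Ptprc*, which encodes the CD45 used in the gate, was at 0.134 to 2.99 FPKM.

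All 9 subunit genes were expressed in every sample, between 15.4 and 151 FPKM. *Arpc2* and *Arpc1b* had the highest means over the 6 samples (127 and 126 FPKM), and *Arpc2* was the higher in 4 of 6. ArpC2 forms the core of the complex and contacts the mother filament, and ArpC1 is a propeller-shaped subunit that binds activators. *Arpc3* and *Arpc5* followed with means of 83.1 and 76.5 FPKM, and *Arpc3* was the higher in 5 of 6 samples. *Actr3*, the Arp3 gene, had a mean of 55.1 FPKM, *Arpc4*, the partner of ArpC2 in the core, 44.0 FPKM, and *Arpc1a* 34.5 FPKM. The lowest means were those of *Arpc5l* (19.2 FPKM) and *Actr2*, the Arp2 gene (18.6 FPKM), which exchanged order in 3 of 6 samples. In 6 of the 8 steps of this order the ranges of neighbouring genes over the 6 samples overlapped. The exceptions were the steps from *Arpc1b* to *Arpc3*, a 1.52-fold difference of means, and from *Arpc1a* to *Arpc5l*, a 1.80-fold difference. Within a sample the highest subunit gene exceeded the lowest by 6.25-fold to 9.45-fold.

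**Figure D1:**
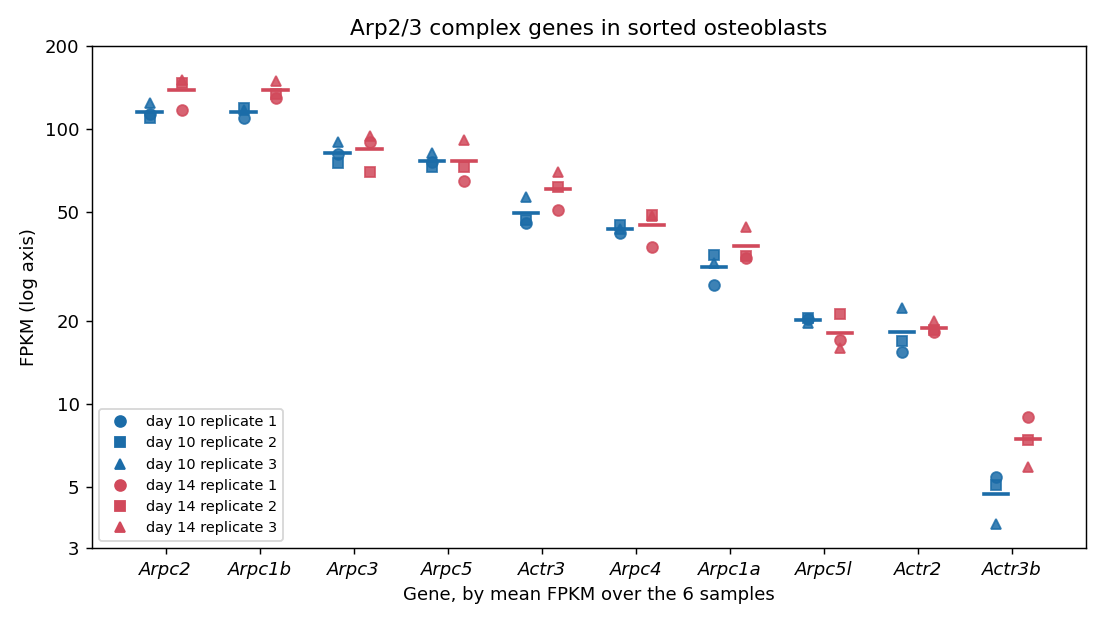
FPKM (log axis) of the 9 subunit genes and the *Actr3* paralog *Actr3b* in the 3 day 10 samples (blue) and 3 day 14 samples (red), with a marker for each replicate and a bar at the mean of each day. The order of the subunit genes runs from *Arpc2* at a mean of 127 FPKM to *Actr2* at 18.6 FPKM, and the days overlap in all of them except *Arpc1b*.

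The subunit transcripts were also grouped by the 7 positions of the assembled complex, with the paralogs summed and *Actr3b* added to Arp3. Each complex holds 1 protein at each position, but the transcripts were far from equal. Arp2 took 2.89% to 3.79% of the FPKM summed over the positions in a sample. ArpC1 took 25.4% to 28.8%, ArpC2 20.1% to 23.9% and ArpC5 14.4% to 18.0%. These are transcript levels per length and say nothing of the protein amounts.

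No subunit gene passed the test between the days. The comparison used limma on log2(FPKM + 0.1) over 19526 genes with a mean above 0.1 FPKM, with Benjamini-Hochberg adjustment. An adjusted p under 0.05 was reached by 0 of the 9 subunit genes, against 0.0154% of all genes in the limma fit. At an unadjusted p under 0.05 the count was also 0 of 9, against 10.0% of all genes. The 95% intervals of all 9 differences lay within a 2-fold change in either direction, from 0.689-fold at the lower end for *Arpc5l* to 1.60-fold at the upper end for *Actr3*. The log2 difference was above 0 in 7 of the 9 genes, against 46.5% of all genes tested, with a median of 0.07 over the 9 genes and -0.04 over all genes tested. Over all genes with a mean above 1 FPKM the median was 0.01. In bulk samples, fewer cells of a type and less RNA per cell cannot be told apart.

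*Arpc1b* was the only subunit gene whose days did not overlap, with day 14 higher. Of all genes tested, 7.59% were separated in this direction and 6.67% in the opposite one, which held for 0 of the 9 subunit genes. It had 109, 119 and 117 FPKM in replicates 1, 2 and 3 of day 10 and 129, 134 and 149.8 FPKM on day 14. The means were 115 ± 5.01 and 138 ± 10.6 FPKM (SD, n = 3 each), a log2 difference of 0.26 with a standard error of 0.14, for which limma gave an adjusted p of 0.602. The exact permutation test, two-sided, gave p = 0.1, which 3 against 3 samples cannot go below. *Arpc2* had 113, 109 and 124 FPKM on day 10 and 117, 147 and 151 FPKM on day 14. Its log2 difference of 0.25 was similar in size (standard error 0.16, adjusted p = 0.657 from limma), but the days overlapped because replicate 1 of day 14 lay below replicate 3 of day 10.

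The Arp3 gene *Actr3* had 45.5, 46.6 and 56.6 FPKM in replicates 1, 2 and 3 of day 10 and 50.8, 61.3 and 69.8 FPKM on day 14. The log2 difference was 0.28 (standard error 0.17, adjusted p = 0.637 from limma), with replicate 1 of day 14 below replicate 3 of day 10. *Actr2*, its actin-related partner, had 15.4, 16.9 and 22.4 FPKM on day 10 and 18.3, 18.5 and 20.1 FPKM on day 14. All day 14 samples of *Actr2* fell inside the day 10 range, and its log2 difference was 0.07 (standard error 0.18, adjusted p = 0.943 from limma).

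*Arpc3*, which links Arp3 to the rest of the complex, had 81.0, 75.2 and 89.4 FPKM on day 10 and 89.8, 69.5 and 93.9 FPKM on day 14. Its day 14 samples spanned both sides of the day 10 range, and the log2 difference was 0.04 (95% interval -0.35 to 0.42). *Arpc4* had 42.0, 44.6 and 43.4 FPKM on day 10 and 37.3, 48.6 and 48.3 FPKM on day 14, with the day 14 samples again on both sides (log2 difference 0.04, 95% interval -0.32 to 0.39). It had the smallest SD over the 6 samples of the 9 genes. *Arpc5* had 75.9, 72.7 and 81.4 FPKM on day 10 and 64.7, 72.9 and 91.3 FPKM on day 14, so that both its lowest and its highest value were from day 14 (log2 difference -0.02, 95% interval -0.40 to 0.36).

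**Figure D2:**
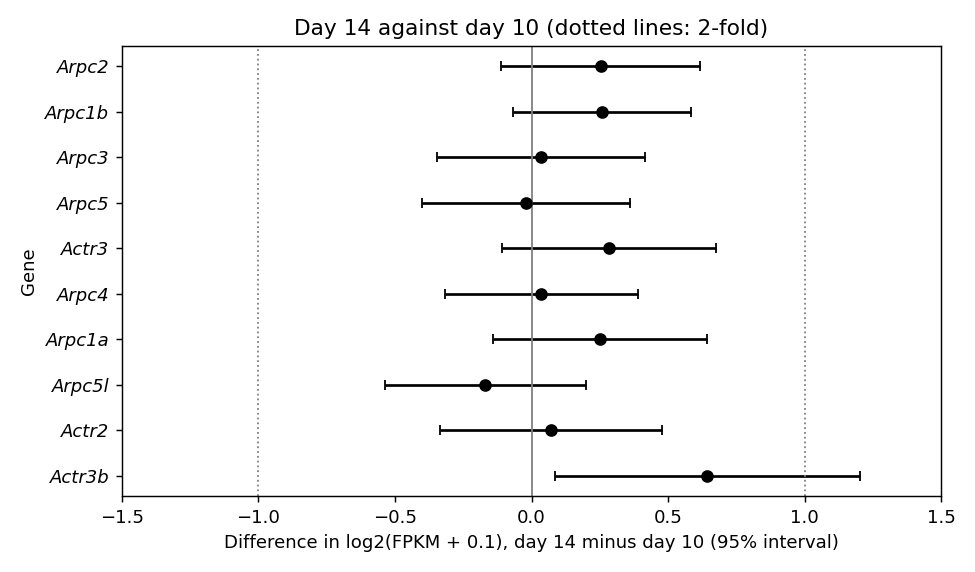
Difference in log2(FPKM + 0.1) between day 14 and day 10 for each gene, with its 95% interval from limma, and dotted lines at a 2-fold change. The intervals of all 9 subunit genes cross 0 and stay inside the dotted lines, while that of the paralog *Actr3b* runs from 0.08 to 1.20.

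The 3 pairs of alternative forms were then compared as shares within a sample, which do not depend on the scaling between samples. ArpC1 is encoded by *Arpc1a* and *Arpc1b*, which lie next to each other on the plus strand of chromosome 5 in mm10. *Arpc1a* spans 145083830 to 145108761 and *Arpc1b* spans 145114215 to 145130705, with 5453 bases between them. *Arpc1b* supplied 80.2%, 77.4% and 78.2% of the ArpC1 transcripts in replicates 1, 2 and 3 of day 10 and 79.2%, 79.5% and 77.2% on day 14. The day means were 78.6% ± 1.44 and 78.7% ± 1.26 (SD, n = 3 each), a difference of 0.0890 percentage points (two-sided exact permutation test, p = 1.0). *Arpc1a* alone had 27.1, 34.7 and 32.6 FPKM on day 10 and 33.9, 34.5 and 44.2 FPKM on day 14, with overlapping days (log2 difference 0.25, adjusted p = 0.696 from limma). The pair's ratio stayed within a narrow range over the 6 samples.

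ArpC5 is encoded by *Arpc5* and *Arpc5l*. *Arpc5l* supplied 21.1%, 22.0% and 19.6% of the ArpC5 transcripts on day 10 and 20.9%, 22.6% and 14.9% on day 14. Replicate 3 of day 14 was the lowest and replicate 2 of day 14 the highest, and the day means of 20.9% ± 1.24 and 19.4% ± 4.03 (SD, n = 3 each) did not differ beyond that spread (two-sided exact permutation test, p = 0.8). *Arpc5l* itself had 20.3, 20.5 and 19.8 FPKM on day 10, within 1 FPKM of each other, and 17.1, 21.2 and 16.0 FPKM on day 14 (log2 difference -0.17, standard error 0.16, adjusted p = 0.798 from limma).

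*Actr3b*, the second Arp3 gene, was not among the 9 subunit genes and was the least expressed paralog. It had 5.43, 5.08 and 3.67 FPKM on day 10 and 9.02, 7.40 and 5.93 FPKM on day 14, with every day 14 sample above every day 10 sample. The log2 difference was 0.64 (standard error 0.24, 95% interval 0.08 to 1.20), with an unadjusted p of 0.0288 and an adjusted p of 0.438 from limma, so it did not pass the test. These values rest on an estimated 44 to 72 reads per sample. Its share of the Arp3 transcripts was 10.7%, 9.82% and 6.09% on day 10 and 15.1%, 10.8% and 7.82% on day 14, with overlapping days (two-sided exact permutation test, p = 0.4). Over the 3 pairs the adjusted exact p was 1.0 for each.

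Shares of the 7 positions were tested in the same way, a comparison that was added after the values were seen. The days did not overlap in 2 of the 7, while 14.3% of all genes tested did not overlap in either direction. That percentage is for the FPKM of single genes, and no background was computed for shares. Arp3 took 9.53%, 9.49% and 10.2% on day 10 and 10.5%, 11.2% and 10.98% on day 14, a difference of 1.15 percentage points. ArpC5 took 18.0%, 17.1% and 17.1% on day 10 and 14.4%, 15.3% and 15.5% on day 14, lower by a difference of -2.33 percentage points. For both, the exact two-sided p was 0.1, which cannot be lower here, with an adjusted p of 0.35 over the 7 positions, which does not pass. The shares add up to a whole in each sample, so a higher share of some positions lowers that of others.

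**Figure D3:**
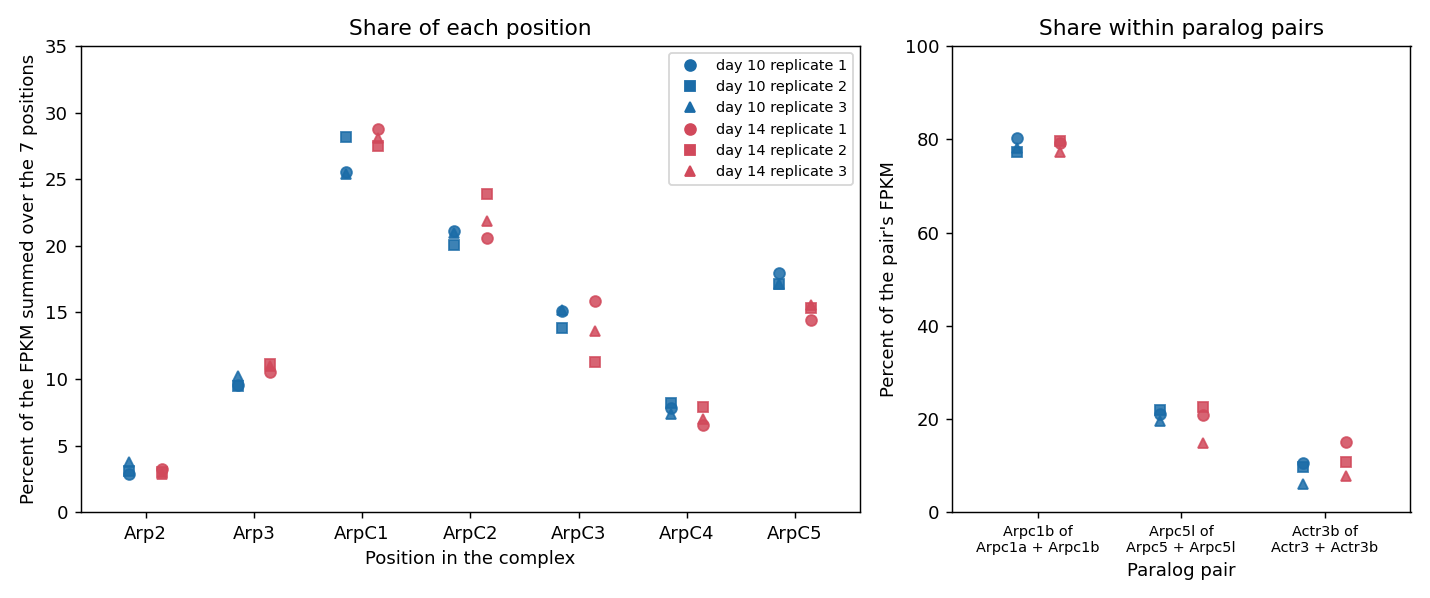
Left, percent of the FPKM summed over the 7 positions of the complex that each position took in each sample, and right, percent of each paralog pair's FPKM from the named paralog, with day 10 in blue and day 14 in red and a marker for each replicate. ArpC1 takes the largest and Arp2 the smallest share in every sample, and *Arpc1b* stays between 77.2% and 80.2% of its pair. The days separate for Arp3 and ArpC5, but neither share passes the test.

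The promoters of the neighbouring ArpC1 genes and of *Actr3* are shown because these genes differ in level from their paralogs. The 250 bases before the RefSeq start of each gene were taken from GRCm38.p6, at chr5:145083619-145083868 on the plus strand for *Arpc1a*, chr5:145114006-145114255 on the plus strand for *Arpc1b* and chr1:125435728-125435977 on the minus strand for *Actr3*. They are written 5′ to 3′ along the gene, with capitals for the hexamer CGGAAG, the core bound by ETS factors, on either strand.
Arpc1a: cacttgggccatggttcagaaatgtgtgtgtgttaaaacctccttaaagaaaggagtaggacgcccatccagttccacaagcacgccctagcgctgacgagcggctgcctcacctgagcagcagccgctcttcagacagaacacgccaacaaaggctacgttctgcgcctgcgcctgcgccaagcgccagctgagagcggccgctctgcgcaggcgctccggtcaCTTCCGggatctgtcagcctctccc
Arpc1b: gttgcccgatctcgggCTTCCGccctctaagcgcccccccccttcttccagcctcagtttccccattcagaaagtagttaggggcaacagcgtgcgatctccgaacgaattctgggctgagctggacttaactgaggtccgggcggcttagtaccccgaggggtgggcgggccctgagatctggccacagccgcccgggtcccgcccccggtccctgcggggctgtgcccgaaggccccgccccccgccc
Actr3: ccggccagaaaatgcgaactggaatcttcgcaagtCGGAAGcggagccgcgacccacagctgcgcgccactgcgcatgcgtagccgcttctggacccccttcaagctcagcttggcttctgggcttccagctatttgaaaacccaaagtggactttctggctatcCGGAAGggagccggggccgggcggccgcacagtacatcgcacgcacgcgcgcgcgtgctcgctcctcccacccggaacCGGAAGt

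Promoters were at hand for 8 of the 9 subunit genes, all except *Arpc5l*. CGGAAG was present on either strand in 7 of the 8 (the exception was *Arpc5*), against 13.6% of the 32851 promoters in the RefSeq table and 24.9% of the 4265 that belong to genes with a mean of at least 10 FPKM. *Actr3* held 3 matches and *Arpc2* held 2. The RefSeq starts differ from the GENCODE starts for some genes. By the GENCODE positions the window of *Arpc2* lies inside the gene. Those of *Arpc1a* and *Arpc1b* run past the start, and the match of *Arpc1a* lies past it. GGGCGG, the GC box bound by Sp family factors, was present in 5 of the 8, against 60.8% of promoters of genes with a mean of at least 10 FPKM. *Arpc1b* held 7 such matches and *Arpc1a* none. The TATA hexamer TATAAA was in 0 of the 8, against 7.10%, and a CArG box, the motif of serum response factor, was in 1, that of *Arpc4*, against 1.29%. The motifs were chosen after the sequences were seen, and a match is a stretch of letters and not a shown binding site.

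The subunit genes varied little over the 6 samples. The SD of log2(FPKM + 0.1) over the samples had a median of 0.17 over the 9 genes, against 0.27 over the 4605 genes with a mean of at least 10 FPKM. It ran from 0.14 for *Arpc4* to 0.24 for *Actr3*, and all 9 were below the median of those genes. Among the same genes 11.4% had a smaller SD than *Arpc4* and 41.8% a smaller SD than *Actr3*. The highest value exceeded the lowest by 1.30-fold for *Arpc4* to 1.63-fold for *Arpc1a*.

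**Figure D4:**
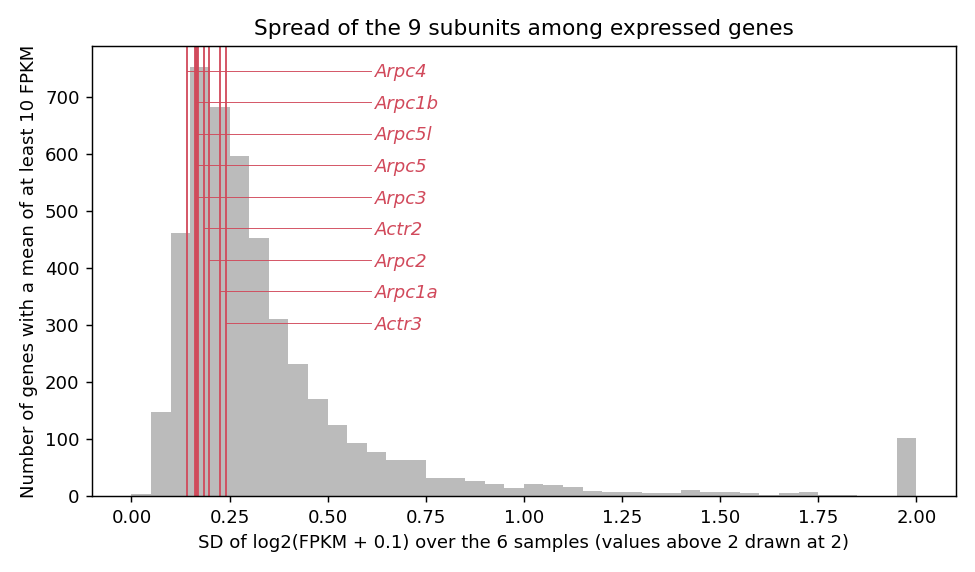
Number of genes with a mean of at least 10 FPKM (grey bars) by the SD of their log2(FPKM + 0.1) over the 6 samples, with values above 2 drawn at 2 and red lines for the 9 subunit genes. The subunit genes lie between 0.14 and 0.24, on the left side of the distribution, whose median is 0.27.

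Replicate 3 of day 14 was the highest sample in 6 of the 9 subunit genes, and it also had the highest myeloid marker sum. Its OB marker sum was the lowest of all samples (15669 FPKM). The subunit genes summed to 684 FPKM there, against 529 to 608 FPKM in the other 5 samples. Replicate 2 of day 14, with the lowest myeloid and the highest chondrocyte marker sum, had the second-highest sum of the subunit genes (608 FPKM). Of the 10 myeloid markers, 8 were highest in replicate 3 and 9 lowest in replicate 2 of day 14, and *Fcer1g* was at 0 in replicate 2. The part of these cells, and of the osteoclast marker sum that was higher on day 14 through *Ctsk*, in the subunit values was not tested. Leaving out a sample that lies above its day mean lowers that mean by arithmetic. Without replicate 3 of day 14, the log2 differences were lower than with it in 8 of the 9 subunit genes. They were 0.18 for *Actr3*, 0.13 for *Arpc1a*, 0.20 for *Arpc1b*, 0.18 for *Arpc2* and 0.03 for *Actr2*. Those of *Arpc3* (-0.047) and *Arpc4* (-0.025) turned negative, that of *Arpc5* was -0.16, and that of *Arpc5l* moved toward 0, to -0.086.

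Several partners and regulators of the complex have a relative used mainly in blood cells, and 6 such pairs were set side by side, chosen after the values were seen. In all 6 pairs the widely expressed gene was the higher in all 6 samples. N-WASP (*Wasl*), an activator, was at 12.9 to 18.6 FPKM, while *Was* was at 0 to 0.216 FPKM. *Nckap1*, a WAVE complex subunit, was at 37.7 to 63.6 FPKM and *Nckap1l* at 0.0374 to 0.878 FPKM. Cortactin (*Cttn*), which stabilises branches, was at 77.3 to 92.3 FPKM and *Hcls1* at 0 to 1.02 FPKM. *Rac1* was at 138 to 176 FPKM and *Rac2* at 0 to 2.15 FPKM, and *Gmfb*, whose product detaches branches, was at 16.2 to 21.9 FPKM and *Gmfg* at 0 to 0.496 FPKM. The blood-cell relative took the largest share of its pair in coronin 1, where *Coro1a* reached 7.23 FPKM beside 85.4 FPKM of *Coro1b* in replicate 3 of day 14, or 7.80% of the pair. *Coro1a*, *Rac2*, *Hcls1* and *Nckap1l* were each highest in replicate 3 and lowest in replicate 2 of day 14, as 8 and 9 of the 10 myeloid markers were. The other relatives did not follow this order, since *Was* was highest in replicate 1 and lowest in replicate 3 of day 10, and *Gmfg* was highest in replicate 3 of day 10 and at 0 in 3 samples. Values under about 0.663 FPKM rest on few reads.

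**Figure D5:**
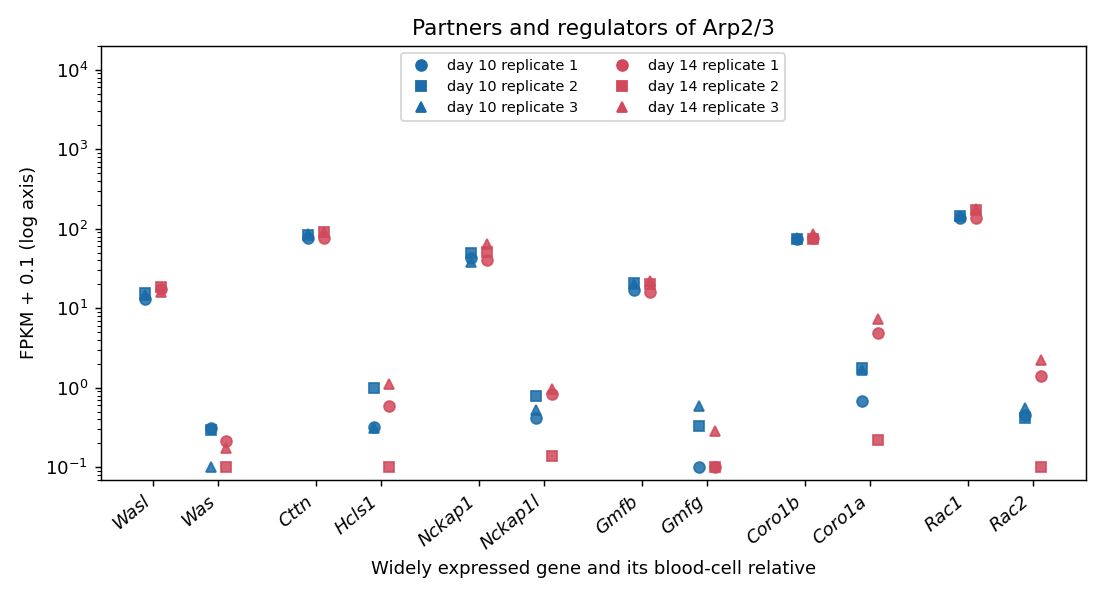
FPKM + 0.1 (log axis) of 6 widely expressed partners or regulators of Arp2/3 and of their blood-cell relatives in each sample, with day 10 in blue, day 14 in red and a marker for each replicate. The widely expressed gene lies above its relative in all samples, and *Coro1a*, *Rac2*, *Hcls1* and *Nckap1l* are highest in replicate 3 and lowest in replicate 2 of day 14, while *Was* and *Gmfg* are highest in day 10 samples.

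Among the activators of the complex, 0 of the 9 tested nucleation-promoting factors had an adjusted p under 0.05 from limma and 0 an unadjusted p under 0.05. Over all genes the shares were 0.0154% and 10.0%. *Was*, the tenth gene of the list, was below the filter on low values. *Cttn* had 82.2 ± 4.64 FPKM on day 10 and 87.2 ± 8.40 FPKM on day 14 (SD, n = 3 each). *Wasl* had 12.9, 15.6 and 14.5 FPKM on day 10 and 17.2, 18.6 and 15.8 FPKM on day 14, without overlap of the days (log2 difference 0.26, adjusted p = 0.637 from limma). Of the 9 tested activators, the days did not overlap in 1 with day 14 higher and in 1 with day 14 lower, against 7.59% and 6.67% of all genes tested. *Wasf2*, the most expressed of the WAVE genes, was at 5.18 to 8.06 FPKM with overlapping days. The activator with day 14 lower was *Wasf3*, at 0.259 FPKM or less in every sample, so its separation rests on few reads.

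Of the 15 partners of WAVE, WASH and WASP proteins, 0 had an adjusted p under 0.05 from limma (0.0154% of all genes) and 1 had an unadjusted p under 0.05 (10.0% of all genes), a share no higher than the background. This was *Abi1*, a scaffold of the WAVE complex, with 15.7, 20.03 and 18.7 FPKM on day 10 and 26.1, 30.6 and 34.7 FPKM on day 14. Every day 14 sample of *Abi1* was above every day 10 sample, as in 7.59% of all genes tested. The log2 difference of 0.74 (standard error 0.17) had an unadjusted p of 0.00221 and an adjusted p of 0.298 from limma. The adjusted p from limma ranged from 0.166 to 0.968 over the alternative settings. *Abi2*, the paralog of *Abi1*, had 12.2, 8.62 and 9.31 FPKM on day 10 and 8.29, 7.62 and 7.14 FPKM on day 14. Every day 14 sample of *Abi2* was below every day 10 sample, as in 6.67% of all genes tested (log2 difference -0.37, adjusted p = 0.586 from limma). Of the 15 partners, the days did not overlap in 2 with day 14 higher and in 1 with day 14 lower. The smallest WAVE subunit, *Brk1*, had 70.9 ± 5.42 FPKM on day 10 and 71.5 ± 4.35 FPKM on day 14 (SD, n = 3 each), and *Nckap1* had 43.4 ± 5.81 and 51.8 ± 11.5 FPKM. *Wipf1*, a WASP-interacting protein, was at 1.07 to 4.79 FPKM (log2 difference 0.84, adjusted p = 0.560 from limma), and without replicate 1 of day 10 its log2 difference was 0.45.

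Of the 8 inhibitors and branch-turnover genes, 0 had an adjusted and 0 an unadjusted p under 0.05 from limma. Over all genes the shares were 0.0154% and 10.0%. *Coro1b*, which promotes debranching, was nearly level with 75.8 ± 0.957 FPKM on day 10 and 78.7 ± 5.82 FPKM on day 14 (SD, n = 3 each). *Coro1c*, another coronin, was at 30.7 to 47.4 FPKM with overlapping days. *Arpin*, a direct inhibitor, was at 8.92 to 12.7 FPKM and *Pick1* at 1.60 to 4.73 FPKM, both with overlapping days.

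Actin and the proteins that bind its monomers, cap filaments or turn them over were measured as a further list of 15. It had 0 adjusted and 0 unadjusted calls from limma, against 0.0154% and 10.0% of all genes. *Actb* had 841 ± 176 FPKM on day 10 and 807 ± 104 FPKM on day 14, and the monomer-binding *Tmsb4x* had 825 ± 219 and 1001 ± 399 FPKM (SD, n = 3 each). *Capza2*, a capping protein subunit, had 83.8 ± 5.62 and 109 ± 20.2 FPKM (log2 difference 0.36, adjusted p = 0.535 from limma). *Capza1*, the other alpha subunit of capping protein measured here, had a log2 difference of 0.24 (adjusted p = 0.765 from limma). *Pfn2*, a profilin, had 10.9, 10.5 and 10.7 FPKM on day 10 and 8.32, 10.5 and 6.95 FPKM on day 14 (log2 difference -0.34, adjusted p = 0.624 from limma).

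Formins and other nucleators of unbranched filaments were tested as an alternative route of filament assembly. Of these 16, limma gave an adjusted p under 0.05 to 0 and an unadjusted p under 0.05 to 1. Over all genes the shares were 0.0154% and 10.0%, so the share of these calls was no higher than the background. The days did not overlap in 1 of the 16 with day 14 higher and in 3 with day 14 lower. Of all genes tested, 7.59% and 6.67% were separated in these directions. The 3 were *Fmnl3*, *Fhod3* and *Spire2*, the last at 0.384 FPKM or less in every sample. *Fmnl3*, the most expressed of them, had 30.9, 28.3 and 22.0 FPKM on day 10 and 20.9, 20.7 and 13.8 FPKM on day 14, with every day 14 sample below every day 10 sample, as in 6.67% of all genes tested. Its log2 difference was -0.56 (standard error 0.22, unadjusted p = 0.0303, adjusted p = 0.443 from limma). *Spire1* was at 6.05 to 10.7 FPKM and *Fhod3* at 0.462 to 2.12 FPKM (adjusted p = 0.695 and 0.602 from limma). The median log2 difference was 0.08 for the activators, 0.12 for their partners and 0.03 for the inhibitors. It was 0.06 for actin with its monomer, capping and turnover proteins and 0.02 for the unbranched nucleators. The median was -0.04 over all genes tested and 0.01 over all genes with a mean above 1 FPKM.

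The mean profile of the 9 subunit genes over the 6 samples was compared with all other genes with a mean of at least 10 FPKM. Genes of the lists above were not left out. The closest were *Snx3*, *Gnb1*, *Ppp2r5c*, *Canx* and *Clcn4-2*. Their centred log2(FPKM + 0.1) differed from the subunit mean by a root mean square of 0.03 (*Snx3*) to 0.04 (*Clcn4-2*). Of the 4596 genes compared, 236 lay within 0.1, so many genes of low variation shared this profile.

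The subunit values rested on an estimated 86 reads (the lowest sample of *Arpc5l*) to 2140 reads (the highest of *Arpc1b*), approximate because most of the genes have several transcripts. Some exon sequence is shared with other annotated genes. Of the 75-base stretches in the annotated transcripts of *Arpc1b*, 19.3% also occur in other genes, mostly in *Pdap1*, which overlaps its end on the opposite strand and was listed at 4.82 to 9.52 FPKM. For *Actr3* the share was 17.7%, all with 2 processed pseudogenes, and for *Arpc4* it was 9.001%, all with its neighbour *Ttll3* (0.226 to 1.57 FPKM). For the other 6 subunit genes it was at most 0.285%. How the reads of these stretches were assigned is not stated.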

How the data were processed

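RNA was purified from sorted ECFP+ OBs, and cDNA was made with a SMART-Seq Ultra Low Input kit, which does not mark strand. Single-end reads of 75 bases were aligned by the authors to mm10. Their processing notes name TopHat2 2.0.13, Bowtie2 2.2.3, SAMtools 0.1.19 and Cufflinks 2.2.1, the last of which gave the FPKM values that the authors deposited for each sample. The gene annotation is not given in the sources used here. In 1 file, 25 symbols had been turned into dates and were restored from the row order, which the other files share; none is a subunit gene.

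Genes with a mean above 0.1 FPKM were compared with limma 3.58.1 in R 4.3.3 (empirical Bayes, prior variance following the mean) on log2(FPKM + 0.1), with the day as the only factor and Benjamini-Hochberg adjustment over all genes tested. The procedure was tested on simulated data. Single values were compared with two-sided exact permutation tests (scipy 1.17.1). The threshold was 0.05. The replicates are labelled as biological. Positions are those of GENCODE vM21 (mm10, counted from 1) and promoters those of RefSeq GRCm38.p6. Depth was estimated from 1977 genes with 1 transcript, with the fragment length set to 230 bases after trying a range of lengths, where 74.7% to 79.3% of low values came within 0.1 of a whole read. Intervals and floors based on reads cover counting error only.

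The subunit genes and lists were chosen with earlier results of these data known. Genes named were the 9 subunit genes and *Actr3b*, up to 3 genes of each list with the smallest p and 2 with the highest mean, and the 5 genes of most similar profile; 1 list is not reported here, and the pairs with blood-cell relatives and the position shares were added later. Of 123 list and marker genes, 123 were matched, 11 by older symbols. Alternatives were 2 pseudocounts, 2 filters, 2 scalings, no trend, a replicate block and leaving out each sample.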

Additional observations from a re-analysis of the deposited data

How the results depend on the processing

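In each of the 14 alternatives the limma fit gave 0 of the 9 subunit genes an adjusted p under 0.05, and the lowest was 0.339. At an unadjusted p under 0.05 the count was 0 to 2 when single samples were left out; the 2 were *Actr3* and *Arpc2* without replicate 1 of day 14 (log2 differences of 0.41 and 0.37). The lists of partners and regulators gave 2 unadjusted calls, 1 without the trend, 3 with median-ratio scaling and 1 to 6 with single samples left out (6 without replicate 2 of day 14), and 0 adjusted calls throughout. Over all genes there were 3 adjusted calls, and 3 to 76 with single samples left out, where the 76 came without replicate 2 of day 14. Quantile normalization turned the log2 differences of *Arpc3* (-0.091), *Arpc4* (-0.058), *Cttn* (-0.032), *Brk1* (-0.077), *Coro1b* (-0.067) and *Tmsb4x* (-0.031), and median-ratio scaling that of *Brk1* (-0.0066). Leaving out single samples gave ranges across 0 for *Actr2* (-0.038 to 0.23), *Arpc3* (-0.047 to 0.17), *Arpc4* (-0.029 to 0.16), *Arpc5* (-0.16 to 0.091), *Brk1* (-0.040 to 0.070), *Coro1b* (-0.0092 to 0.084), *Coro1c* (-0.15 to 0.15), *Tmsb4x* (-0.065 to 0.48) and *Actb* (-0.16 to 0.12). The difference in the *Arpc1b* share ran from -0.520 to 0.884 points, that of *Arpc5l* from -3.02 to 0.813 points (0.813 without replicate 3 of day 14) and that of *Actr3b* from 0.445 to 4.08 points. The Arp3 position share ran from 1.01 to 1.38 points and that of ArpC5 from -2.55 to -1.99 points. The cause of these shifts was not tested.

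For samples with the same replicate number, the deviations from the day means correlated at 0.058, -0.00584 and 0.0887. For samples with different numbers the correlations were -0.0978 to 0.0202. With 3 samples per day these values cannot show whether samples of the same number share more than the number. With the replicate number as a block, limma gave an adjusted p under 0.05 to 0 subunit genes and to 2 genes in all. The *Actr3b* share was higher on day 14 in 3 of 3 numbered pairs (paired exact permutation test, two-sided, p = 0.25, which 3 pairs cannot go below).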
